A study of Mus musculus with 20 samples.

Results

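Pancreatic islets express 10 genes that are followed here through 20 RNA sequencing libraries: the prohormone genes Ins1, Ins2, Iapp and Ucn3, and the insulin processing genes Pcsk1, Pcsk2, Pcsk1n, Cpe, Pam and Slc30a8. They were listed by name for their part in making, cleaving and storing insulin and the peptides released with it, and all 10 were found by Ensembl ID among the 28632 genes of the count table. The study asked what β cells lose without mitofusin 1 and mitofusin 2, the proteins of the outer mitochondrial membrane encoded by Mfn1 and Mfn2 that join mitochondria to one another. RNA came from islets isolated from mice aged 12 weeks and kept in culture before extraction. Ctrl held 6 libraries (3 female and 3 male mice) and β-Mfn1KO held 4 (3 female and 1 male). Both β-Mfn2KO and β-Mfn1/2DKO held 5 (2 female and 3 male each). The knockout mice carried loxP-flanked Mfn1 alleles, Mfn2 alleles or both, together with Ins1-Cre, a knock-in that puts Cre recombinase in the place of Ins1 and deletes the flanked exons in β cells. Other islet cells keep both genes. The sample labels call the controls wild type, whereas the study pooled mice with Ins1-Cre alone and mice with loxP-flanked alleles alone. Which Ctrl mice carried Cre is not given in the sources used here, nor is how many Ins1 copies were replaced in any mouse. Totals ran from 12.4 to 20.3 M counts per library in Ctrl, from 15.7 to 16.7 in β-Mfn1KO, from 15.1 to 59.5 in β-Mfn2KO and from 65.5 to 122.9 in β-Mfn1/2DKO. Since the β-Mfn1/2DKO libraries are all deep, effects of the genotype and of anything else these libraries share, such as a sequencing run, cannot be separated.

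Insulin begins as preproinsulin, which enters the endoplasmic reticulum, loses its signal peptide and folds before it travels through the Golgi into secretory granules. There the prohormone convertases encoded by Pcsk1 and Pcsk2 cut proinsulin, carboxypeptidase E trims the basic residues left at the cut ends, and zinc carried in by the transporter ZnT8, the product of Slc30a8, packs insulin into hexamers. Mice, unlike most mammals, have a pair of insulin genes: Ins2 is the ancestral gene and Ins1 a retroposed copy on another chromosome.

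The targeted genes were read first. Mfn1 lay at 36.6 to 43.6 counts per M counts (CPM, scaled between libraries by the trimmed mean of M-values, TMM) in Ctrl and at 40.6 to 43.6 in β-Mfn2KO. It lay at 15.0 to 18.6 CPM in β-Mfn1KO and at 16.6 to 25.6 in β-Mfn1/2DKO. Mfn2 lay at 74.6 to 106 CPM in Ctrl and 93.4 to 111 in β-Mfn1KO, against 35.6 to 40.8 in β-Mfn2KO and 48.8 to 51.5 in β-Mfn1/2DKO. Each targeted gene was lower in every library labelled as its knockout than in every library that kept it. Reads from the exons that Cre leaves in place and from other islet cells are counted too, so these levels do not measure the share of β cells that were recombined.

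Promoters are shown for Ins1, Iapp, Ucn3 and Pcsk1, which were all lower in β-Mfn1/2DKO than in every other genotype, so that their upstream sequences can be read side by side. They come from RefSeq on GRCm38.p6, which holds 7 of the 10 genes by symbol (all but Ins2, Cpe and Slc30a8), and run 5′ to 3′ from 250 bases before each gene's start to 50 after it. The windows are chr19:52264047-52264346 on the plus strand for Ins1, chr6:142298175-142298474 on the plus strand for Iapp, chr13:3945300-3945599 on the minus strand for Ucn3 and chr13:75089607-75089906 on the plus strand for Pcsk1. Capitals mark matches on either strand to TAAT, the core of the A box bound by homeodomain factors such as Pdx1, to CANNTG, the E box bound by factors such as Neurod1, and to TGACG, the half-site of a cAMP response element.
Ins1: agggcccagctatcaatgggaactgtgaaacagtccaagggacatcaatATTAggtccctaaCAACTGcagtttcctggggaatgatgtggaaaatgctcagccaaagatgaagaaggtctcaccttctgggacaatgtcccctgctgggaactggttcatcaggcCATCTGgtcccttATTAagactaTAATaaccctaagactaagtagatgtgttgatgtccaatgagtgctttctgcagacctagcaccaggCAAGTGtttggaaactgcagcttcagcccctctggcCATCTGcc
Iapp: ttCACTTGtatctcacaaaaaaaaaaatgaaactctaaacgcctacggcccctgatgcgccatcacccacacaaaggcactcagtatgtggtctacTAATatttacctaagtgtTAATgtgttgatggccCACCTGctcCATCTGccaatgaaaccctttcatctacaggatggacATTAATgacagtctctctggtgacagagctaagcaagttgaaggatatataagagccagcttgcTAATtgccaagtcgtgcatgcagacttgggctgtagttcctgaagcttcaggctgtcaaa
Ucn3: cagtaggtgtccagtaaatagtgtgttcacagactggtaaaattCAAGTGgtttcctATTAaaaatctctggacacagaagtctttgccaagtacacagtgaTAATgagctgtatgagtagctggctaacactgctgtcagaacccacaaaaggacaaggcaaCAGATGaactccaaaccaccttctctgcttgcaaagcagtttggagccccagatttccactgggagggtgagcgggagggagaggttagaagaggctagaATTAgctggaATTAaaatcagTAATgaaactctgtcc
Pcsk1: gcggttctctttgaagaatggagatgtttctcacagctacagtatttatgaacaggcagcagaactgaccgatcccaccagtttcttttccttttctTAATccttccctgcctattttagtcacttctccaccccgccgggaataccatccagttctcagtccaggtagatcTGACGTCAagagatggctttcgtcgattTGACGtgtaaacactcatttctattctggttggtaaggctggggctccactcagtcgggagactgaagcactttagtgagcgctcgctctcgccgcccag
The Ins1 window held 3 matches to TAAT and 4 to CANNTG. Those of Iapp and Ucn3 held 5 to TAAT each, with 3 and 2 to CANNTG. The Pcsk1 window held 1 match to TAAT, 0 to CANNTG and 3 to TGACG, of which a pair overlaps in a palindrome, as a pair of TAAT matches does in Iapp. Among 27025 promoters of this length 58.3% held TAAT, 72.2% CANNTG and 21.02% TGACG, so matches of this kind are common. TGCTGA, a half-site for Maf factors, had 0 matches in these 4 windows and occurred in 19.1% of all promoters. A match is a run of letters and not a measured binding site.

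In β-Mfn1/2DKO islets most of these genes were lower and 0 were higher. Genes were called at an adjusted p under 0.05, using quasi-likelihood tests in edgeR and the Benjamini-Hochberg method across all genes. Against Ctrl, 7 of 10 fell (Ins1, Ins2, Iapp, Ucn3, Pcsk1, Cpe and Slc30a8), where 16.5% of all genes tested passed in either direction. Of these, 4 changed by over 1.5-fold (Ins1, Ins2, Ucn3 and Pcsk1), as did 5.21% of all genes. In all 7, every β-Mfn1/2DKO library lay below every Ctrl library, and the libraries of both groups were apart for 10.6% of all genes. Shares of all genes are over 28632 genes without a filter on low counts, of which 12274 averaged 100 or more scaled counts. All 10 genes here were above that level, so the shares are not those of equally abundant genes. The median log2 fold change of the 10 genes was −0.46, beside 0.06 over all genes. Against Ctrl, 1 of 10 fell in β-Mfn1KO (0.0279% of all genes passed) and 1 of 10 in β-Mfn2KO (0.0559%), in both cases Ins1. Against β-Mfn1KO, 8 of 10 fell in β-Mfn1/2DKO (17.4% of all genes), adding Pam to the list above. Against β-Mfn2KO, 7 of 10 fell (13.0%), the same genes as against Ctrl. All comparisons with Ctrl share its 6 libraries, and those with β-Mfn1/2DKO share its 5. An islet is a mixture of cells, so fewer β cells and less RNA per β cell cannot be told apart in these data.

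**Figure D1:**
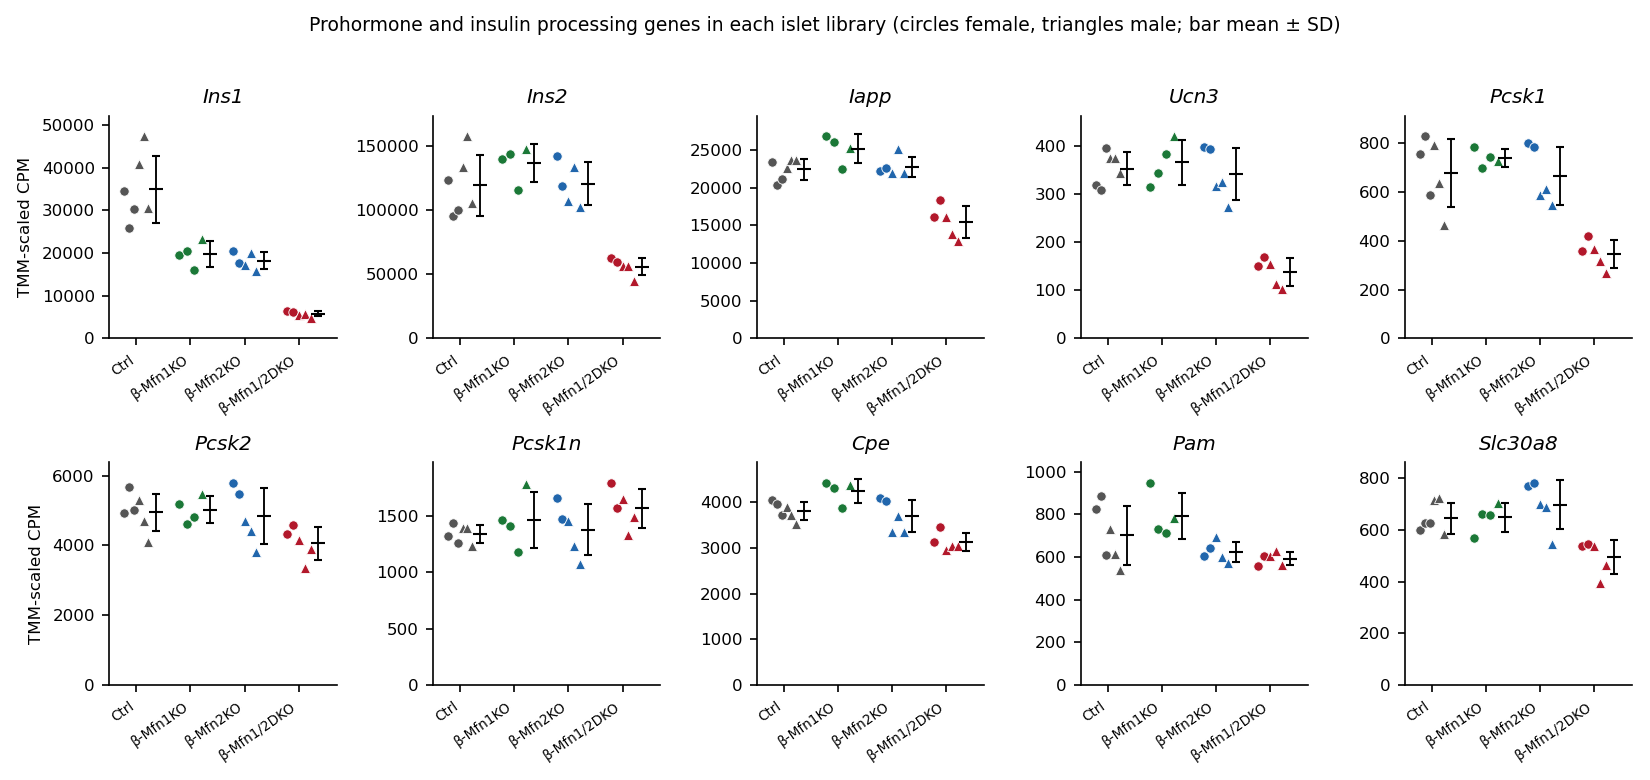
TMM-scaled CPM of each gene in every islet library, by genotype, with circles for female and triangles for male mice and bars for the mean ± SD. Ins1, Ins2, Iapp, Ucn3 and Pcsk1 lie lower in all 5 β-Mfn1/2DKO libraries than in any other library, whereas Pcsk1n does not.

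Ins2 was the most abundant gene of the libraries in all 4 genotypes. In Ctrl it ran from 95337 to 157703 CPM with a median of 114464. It stood at 140033, 143692, 115365 and 147610.0 CPM in β-Mfn1KO and at 142120.2, 118434, 107393, 133137 and 102037 in β-Mfn2KO, in order of replicate number. In β-Mfn1/2DKO it stood at 62505, 59395, 56351, 56136 and 44884. All 5 β-Mfn1/2DKO libraries were thus below the lowest library of the other genotypes, whose ranges overlapped one another. The log2 fold change of Ins2 in β-Mfn1/2DKO was −1.09 (SE 0.13, adjusted p = 4.45e-06) against Ctrl, −1.29 (SE 0.14, adjusted p = 1.71e-06) against β-Mfn1KO and −1.11 (SE 0.14, adjusted p = 9.77e-06) against β-Mfn2KO. For the single knockouts against Ctrl it was 0.20 (adjusted p = 0.737) in β-Mfn1KO and 0.02 (adjusted p = 1.0) in β-Mfn2KO.

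Ins1 is the locus that holds Cre in every knockout mouse, so a lower level against Ctrl is not read here as an effect of Mfn1 or Mfn2. In Ctrl it ran from 25739.6 to 47386 CPM with a median of 32469.7. In β-Mfn1KO it stood at 19505, 20391, 15896 and 23205 CPM and in β-Mfn2KO at 20398, 17633, 17278, 19984 and 15707. In β-Mfn1/2DKO it stood at 6419, 6096, 5591, 5778 and 4885 CPM. Each single knockout lay wholly below Ctrl, and β-Mfn1/2DKO wholly below the single knockouts. Log2 fold changes of Ins1 against Ctrl were −0.82 (SE 0.14, adjusted p = 0.0324) for β-Mfn1KO, −0.94 (SE 0.13, adjusted p = 0.00144) for β-Mfn2KO and −2.60 (SE 0.14, adjusted p = 5.14e-11) for β-Mfn1/2DKO. The call in β-Mfn1KO was narrow. Without Ctrl replicate 4 its adjusted p was 0.1098, without Ctrl replicate 5 it was 0.0790, and without β-Mfn1KO replicates 1, 2, 3 or 4 it was 0.195, 0.149, 0.0682 and 0.0678, while the log2 fold change stayed between −0.91 and −0.71. All knockout genotypes carry Ins1-Cre, but whether they carry as many copies is not known. Against the single knockouts Ins1 fell in β-Mfn1/2DKO too, by log2 values of −1.78 (SE 0.15, adjusted p = 3.74e-08) against β-Mfn1KO and −1.66 (SE 0.14, adjusted p = 1.13e-07) against β-Mfn2KO, and β-Mfn2KO minus β-Mfn1KO gave −0.12 (SE 0.15, adjusted p = 0.754).

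Counts of Ins1 relative to Ins2 within a library need no scaling between libraries. Ctrl libraries held 28.0, 27.0, 30.5, 30.5, 30.05 and 28.8 counts of Ins1 per 100 counts of Ins2. The ratio was 13.9, 14.2, 13.8 and 15.7 in β-Mfn1KO and 14.4, 14.9, 16.1, 15.0 and 15.4 in β-Mfn2KO. In β-Mfn1/2DKO it was 10.3, 10.3, 9.92, 10.3 and 10.9. The Ctrl values formed a single narrow range, with no library near those of the knockouts, and the ranges of the single knockouts overlapped each other. The difference in mean log2 ratio from Ctrl was −1.02 in β-Mfn1KO (p = 0.00952), −0.94 in β-Mfn2KO (p = 0.00433) and −1.50 in β-Mfn1/2DKO (p = 0.00433) by two-sided exact permutation tests over libraries, with adjusted p of 0.0286, 0.0260 and 0.0260 over 30 such tests of 5 ratios. Each p was the smallest that groups of these sizes can give. The ratio was also lower in β-Mfn1/2DKO than in both single knockouts, in 5 of 5 libraries: the difference was −0.48 from β-Mfn1KO (exact permutation p = 0.0159, adjusted 0.0340) and −0.55 from β-Mfn2KO (exact permutation p = 0.00794, adjusted 0.0265), again the smallest p possible. Between β-Mfn2KO and β-Mfn1KO it was 0.07 (exact permutation p = 0.190, adjusted 0.317). Thus Ins1 fell more than Ins2 where both mitofusins were lost, and a difference in Ins1-Cre copies was not tested.

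The transcripts of both genes are alike, so the reach of reads that fit both was checked. The longest stretch identical in Ins1-201 and Ins2-201 was 56 bases, and 0% of the 75-base stretches of Ins1-201 occurred in an Ins2 transcript.

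Out of all counts, both insulin genes together took up 15.0 ± 2.68% (mean ± SD of 6 libraries) in Ctrl, 15.0 ± 1.31% (of 4) in β-Mfn1KO, 13.8 ± 1.35% (of 5) in β-Mfn2KO and 6.63 ± 0.9404% (of 5) in β-Mfn1/2DKO. All 10 genes together took up 18.4 ± 2.69% in Ctrl and 9.40 ± 1.24% in β-Mfn1/2DKO. The share of Ins1 among insulin counts went from 22.6 ± 0.880% in Ctrl to 12.6 ± 0.678% in β-Mfn1KO, 13.2 ± 0.486% in β-Mfn2KO and 9.36 ± 0.285% in β-Mfn1/2DKO. The single knockouts thus held about as many insulin counts as Ctrl, with less of them from Ins1. Of the difference in insulin CPM between β-Mfn1/2DKO and Ctrl, −92475 on average, 31.5% lay in Ins1 and 68.5% in Ins2. Counting error is small at these depths: Ins1 made up 0.495% of β-Mfn1/2DKO replicate 5, the lowest share of any library, with a 95% Wilson interval of 0.494 to 0.497% that covers counting error only.

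**Figure D2:**
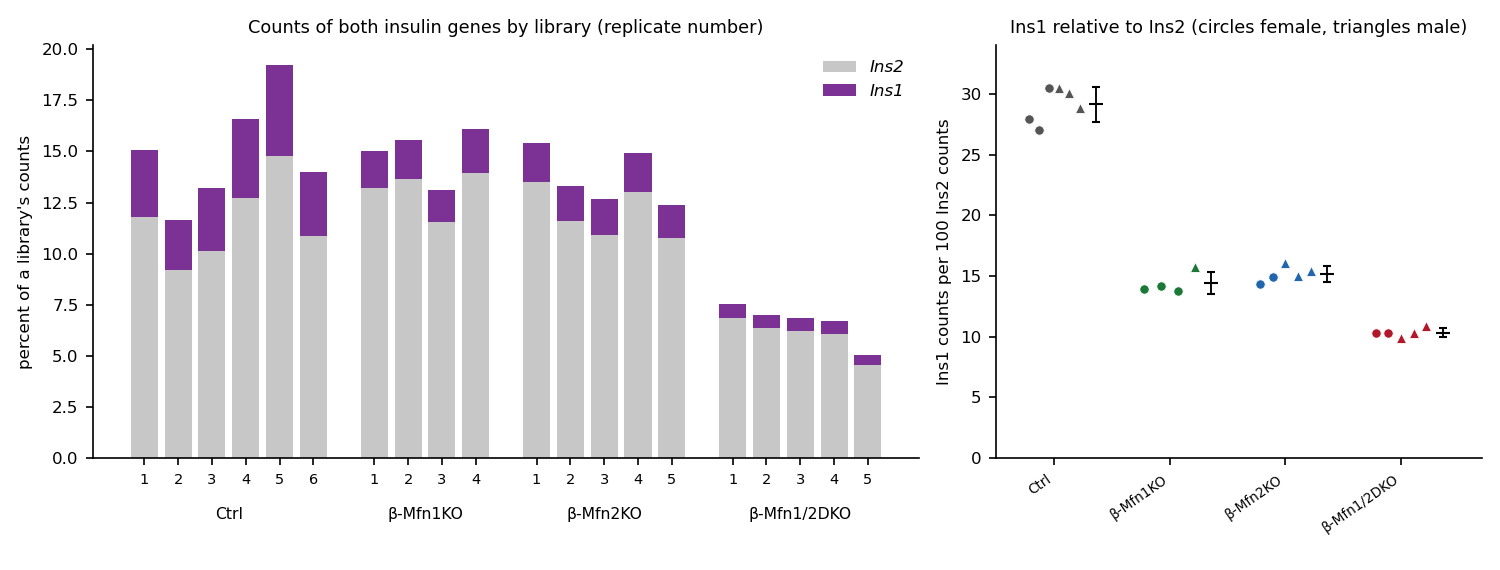
Percent of each library's counts from Ins2 and Ins1, stacked, by replicate number and genotype (left), and counts of Ins1 per 100 counts of Ins2 in each library with the mean ± SD (right). The ratio separates Ctrl (27.0 to 30.5), the single knockouts (13.8 to 16.1) and β-Mfn1/2DKO (9.92 to 10.9), whereas the insulin share is low in β-Mfn1/2DKO alone.

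Iapp and Ucn3 encode prohormones that β cells release beside insulin: Iapp gives islet amyloid polypeptide, and Ucn3 gives urocortin 3, which acts on neighbouring δ cells. Iapp in Ctrl ran from 20342 to 23708 CPM with a median of 22932. It stood at 26836, 26090.2, 22416 and 25293 CPM in β-Mfn1KO, at 22172, 22636, 21949.6, 25080.0 and 21933 in β-Mfn2KO and at 16152, 18309.9, 16075, 13893 and 12947 in β-Mfn1/2DKO. The β-Mfn1/2DKO libraries lay below all others, with replicates 4 and 5 the lowest. The log2 fold change of Iapp in β-Mfn1/2DKO was −0.54 (SE 0.09, adjusted p = 0.000138) against Ctrl, −0.70 (SE 0.10, adjusted p = 1.70e-05) against β-Mfn1KO and −0.56 (SE 0.09, adjusted p = 0.000204) against β-Mfn2KO, a smaller fall than that of the insulin genes. Counts of Iapp per count of Ins2 accordingly ran from 0.150 to 0.223 in Ctrl, from 0.171 to 0.194 in β-Mfn1KO and from 0.156 to 0.215 in β-Mfn2KO. In β-Mfn1/2DKO they were 0.258, 0.308, 0.285, 0.247 and 0.288, all above the libraries of the other genotypes. The difference in mean log2 ratio was 0.53 (p = 0.00433, adjusted p = 0.0260) from Ctrl, 0.58 (p = 0.0159, adjusted p = 0.0340) from β-Mfn1KO and 0.54 (p = 0.00794, adjusted p = 0.0265) from β-Mfn2KO in two-sided exact permutation tests, each p the smallest these sizes allow. Iapp thus fell less than Ins2, and its share relative to insulin mRNA was higher in 5 of 5 β-Mfn1/2DKO libraries.

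Ucn3 in Ctrl ran from 308 to 395 CPM with a median of 359. It stood at 314, 344, 384 and 421 CPM in β-Mfn1KO, at 399, 395, 318, 325 and 273 in β-Mfn2KO and at 151, 169, 154, 112 and 102 in β-Mfn1/2DKO. Every β-Mfn1/2DKO library lay below every other library, and replicates 4 and 5 were again the lowest. The log2 fold change of Ucn3 in β-Mfn1/2DKO was −1.36 (SE 0.13, adjusted p = 1.19e-07) against Ctrl, −1.41 (SE 0.14, adjusted p = 2.72e-07) against β-Mfn1KO and −1.31 (SE 0.13, adjusted p = 7.14e-07) against β-Mfn2KO. Relative to Ins2 the fall did not stand out: the difference in mean log2 ratio from Ctrl was −0.30 (two-sided exact permutation p = 0.0823, adjusted 0.165), and the libraries overlapped.

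Pcsk1 and Pcsk2 encode the convertases PC1/3 and PC2, which cut proinsulin on either side of the C-peptide. Pcsk1 in Ctrl ran from 465 to 829.6 CPM with a median of 696. It stood at 784, 698, 744 and 726 CPM in β-Mfn1KO, at 802, 784, 588, 611 and 547 in β-Mfn2KO and at 357, 419, 368, 316 and 269.6 in β-Mfn1/2DKO. The highest β-Mfn1/2DKO library was below the lowest library of any other genotype. The log2 fold change of Pcsk1 in β-Mfn1/2DKO was −0.97 (SE 0.14, adjusted p = 2.44e-05) against Ctrl, −1.09 (SE 0.15, adjusted p = 1.51e-05) against β-Mfn1KO and −0.95 (SE 0.14, adjusted p = 7.45e-05) against β-Mfn2KO. Pcsk2 in Ctrl ran from 4093 to 5664 CPM with a median of 4969, and stood at 4334, 4579, 4165, 3351 and 3908 CPM in β-Mfn1/2DKO. It lay at 4608 to 5471 in β-Mfn1KO and 3801 to 5803 in β-Mfn2KO. The Pcsk2 ranges of Ctrl and β-Mfn1/2DKO overlapped. Its log2 fold change against Ctrl was −0.28 (SE 0.11, adjusted p = 0.0701), which missed the threshold. It passed with all libraries under 6 of 11 alternatives: DESeq2 (−0.31, adjusted p = 0.0106), DESeq2 size factors in edgeR (adjusted p = 0.0418), filterByExpr (0.0272), sex as a covariate (0.0458), replicate number as a block (0.00737) and thinning (0.0412). It also passed without Ctrl replicate 6 (−0.33, adjusted p = 0.0272), and turned to 0.09 with depth class as a covariate, so the call of Pcsk2 depends on the method. Against β-Mfn1KO it was −0.30 (SE 0.12, adjusted p = 0.0763) and against β-Mfn2KO −0.25 (SE 0.11, adjusted p = 0.146), where leaving out β-Mfn2KO replicate 5 gave −0.30, adjusted p = 0.0467. Of the alternatives, 5 let Pcsk2 pass against β-Mfn1KO (DESeq2, its size factors, filterByExpr, the block and thinning) and 1 against β-Mfn2KO (DESeq2). Counts of Pcsk2 hold a small uncertain part, as its exons overlap those of the antisense genes Pcsk2os1 and Pcsk2os2 (9260 and 773 counts, against 3578049 for Pcsk2), and whether the counting used strand is not given in the sources used here.

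The balance of counts of both convertases in whole islets therefore shifted. These counts come from all islet cells, and whether the balance shifted within β cells was not tested. Counts of Pcsk1 per count of Pcsk2 ran from 0.114 to 0.154 in Ctrl, from 0.133 to 0.155 in β-Mfn1KO and from 0.125 to 0.144 in β-Mfn2KO. In β-Mfn1/2DKO they were 0.0824, 0.0914, 0.0884, 0.0944 and 0.0690. All 5 β-Mfn1/2DKO libraries were below the other 15. The difference in mean log2 ratio was −0.67 (p = 0.00433, adjusted p = 0.0260) from Ctrl, −0.80 (p = 0.0159, adjusted p = 0.0340) from β-Mfn1KO and −0.70 (p = 0.00794, adjusted p = 0.0265) from β-Mfn2KO in two-sided exact permutation tests, each p the smallest these sizes allow. Both single knockouts overlapped Ctrl, with differences of 0.13 (exact permutation p = 0.257, adjusted 0.406) in β-Mfn1KO and 0.03 (p = 0.775, adjusted 0.830) in β-Mfn2KO. Pcsk1n encodes proSAAS, an inhibitor of PC1/3. It lay at 1232 to 1433 CPM in Ctrl, 1182 to 1784 in β-Mfn1KO, 1074 to 1657 in β-Mfn2KO and 1332 to 1792 in β-Mfn1/2DKO, and the ranges overlapped. It was the only one of the 10 genes with a positive log2 fold change in β-Mfn1/2DKO against Ctrl, 0.23 (SE 0.11, adjusted p = 0.157), which did not pass, and passed when only β-Mfn1/2DKO and Ctrl were fitted (0.24, adjusted p = 0.0464). With total-count scaling the same value was 0.37, adjusted p = 0.00730. Counts of Pcsk1n per count of Pcsk1 ran from 1.73 to 2.65 in Ctrl and were 5.02, 3.75, 4.48, 4.21 and 5.52 in β-Mfn1/2DKO, above the other 15 libraries. The difference in mean log2 ratio was 1.18 (p = 0.00433, adjusted p = 0.0260) from Ctrl, 1.22 (p = 0.0159, adjusted p = 0.0340) from β-Mfn1KO and 1.14 (p = 0.00794, adjusted p = 0.0265) from β-Mfn2KO in the same exact permutation tests. Pcsk1n overlaps Eras on the opposite strand, which had 35 counts against 1229894.

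**Figure D3:**
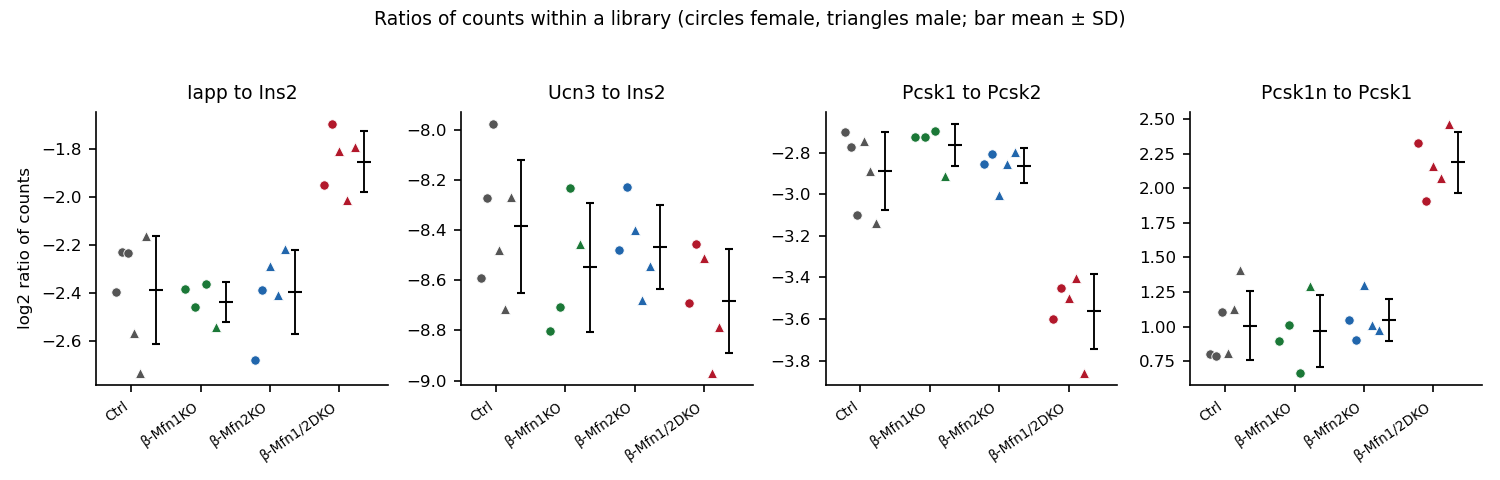
Log2 ratio of counts of Iapp to Ins2, Ucn3 to Ins2, Pcsk1 to Pcsk2 and Pcsk1n to Pcsk1 within each library, by genotype, with circles for female and triangles for male mice and bars for the mean ± SD. The β-Mfn1/2DKO libraries stand apart in all but the Ucn3 to Ins2 ratio.

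In all, 14 of the 30 ratio tests passed at an adjusted p under 0.05, and in the same 14 the libraries of both groups were apart. These were Ins1 to Ins2 in every pair of genotypes but β-Mfn2KO and β-Mfn1KO, and the ratios of Iapp to Ins2, Pcsk1 to Pcsk2 and Pcsk1n to Pcsk1 in β-Mfn1/2DKO against each other genotype. With 4 β-Mfn1KO libraries these tests have few splits to draw on. Leaving out any one of β-Mfn1KO replicates 1 to 4 left 9 of 30 passing, as the tests with that genotype then had adjusted p of 0.0670 to 0.0765. Leaving out any one of β-Mfn1/2DKO replicates 1 to 5 left 10, with an adjusted p of 0.0612 for each ratio against β-Mfn1KO. Among the 7 libraries over 40 M counts (5 β-Mfn1/2DKO and 2 β-Mfn2KO) the differences were −0.56 for Ins1 to Ins2, 0.46 for Iapp to Ins2, −0.74 for Pcsk1 to Pcsk2 and 1.19 for Pcsk1n to Pcsk1, each with the smallest p that 21 splits can give in a two-sided exact permutation test, 0.0952. The β-Mfn1/2DKO libraries are deeper there too (65.5 to 122.9 M counts against 55.96 and 59.53 M), so depth and genotype are not separated by these values.

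Cpe encodes carboxypeptidase E. In Ctrl it ran from 3518 to 4053 CPM with a median of 3814. It stood at 4429.9, 4315, 3871 and 4372 CPM in β-Mfn1KO, at 4082, 4020.1, 3339, 3707 and 3342 in β-Mfn2KO and at 3126, 3465, 2965, 3049 and 3037 in β-Mfn1/2DKO. The β-Mfn1/2DKO libraries were below all Ctrl and β-Mfn1KO libraries and overlapped those of β-Mfn2KO. The log2 fold change of Cpe in β-Mfn1/2DKO was −0.29 (SE 0.07, adjusted p = 0.00630) against Ctrl, −0.44 (SE 0.08, adjusted p = 0.000281) against β-Mfn1KO and −0.24 (SE 0.07, adjusted p = 0.0317) against β-Mfn2KO. The last call was lost without any one of β-Mfn2KO replicates 1, 2 and 4 and β-Mfn1/2DKO replicates 1, 3, 4 and 5 (adjusted p from 0.0634 to 0.107). It was also lost without both β-Mfn1/2DKO replicates 4 and 5 (−0.20, adjusted p = 0.225) and when only the compared groups were fitted (−0.23, adjusted p = 0.103). Pam encodes the monooxygenase that amidates the C-terminus of peptides such as amylin. It lay at 538 to 888 CPM in Ctrl, 712 to 949.6 in β-Mfn1KO, 572 to 692 in β-Mfn2KO and 556 to 629.7 in β-Mfn1/2DKO. Its log2 fold change in β-Mfn1/2DKO was −0.24 (SE 0.11, adjusted p = 0.131) against Ctrl, and passed with DESeq2 (−0.27, adjusted p = 0.0382), with replicate number as a block (−0.30, adjusted p = 0.0229) and without Ctrl replicate 6 (−0.31, adjusted p = 0.0319). It was −0.42 (SE 0.12, adjusted p = 0.0130) against β-Mfn1KO, which no longer passed without β-Mfn1KO replicate 1, the highest Pam library (−0.32, adjusted p = 0.0790), without β-Mfn1/2DKO replicates 4 and 5 (adjusted p = 0.0517), with total-count scaling (0.111) or with depth class as a covariate (0.538). Against β-Mfn2KO it was −0.07 (SE 0.11, adjusted p = 0.729), and the ranges overlapped.

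Slc30a8 in Ctrl ran from 583 to 722 CPM with a median of 626. It stood at 568, 663, 659 and 704 CPM in β-Mfn1KO, at 772, 783, 699, 688 and 545 in β-Mfn2KO and at 536, 545, 538, 395 and 465 in β-Mfn1/2DKO. The β-Mfn1/2DKO libraries lay below all the others, those of replicates 4 and 5 by the most, and β-Mfn2KO replicate 5 was barely above β-Mfn1/2DKO replicate 2. The log2 fold change of Slc30a8 in β-Mfn1/2DKO was −0.38 (SE 0.10, adjusted p = 0.00799) against Ctrl, −0.39 (SE 0.11, adjusted p = 0.0123) against β-Mfn1KO and −0.49 (SE 0.10, adjusted p = 0.00179) against β-Mfn2KO. The call against β-Mfn1KO was lost without β-Mfn1/2DKO replicate 4 (−0.29, adjusted p = 0.0532). Among 9 other zinc transporters of the same family, 2 fell and 2 rose in β-Mfn1/2DKO against Ctrl, where 6.86% of all genes fell and 9.59% rose. Slc30a5 (log2 fold change −0.53, adjusted p = 3.39e-06) and Slc30a7 (log2 fold change −0.45, adjusted p = 0.00131), which load zinc into the early secretory pathway, were lower. Slc30a1, which exports zinc across the plasma membrane, was higher (log2 fold change 0.34, adjusted p = 0.00294).

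**Figure D4:**
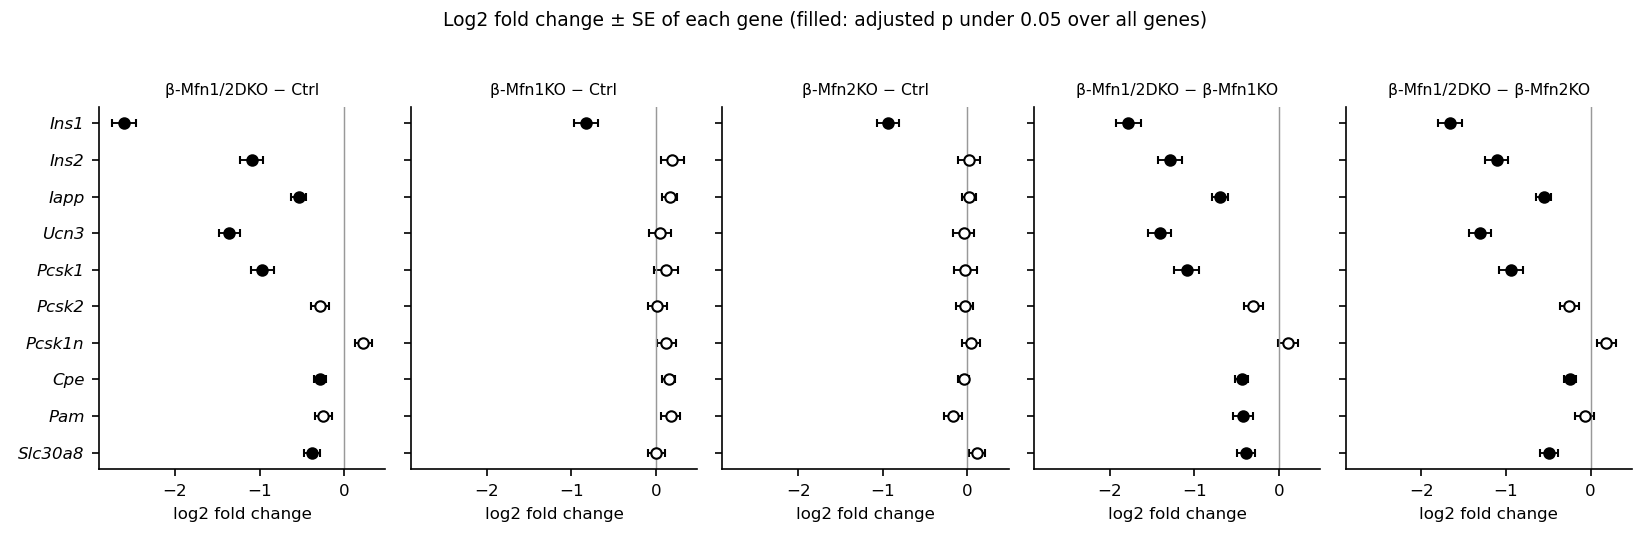
Log2 fold change ± SE of each gene in 5 comparisons from 1 fit over 20 libraries, filled where the adjusted p over all genes is under 0.05. In β-Mfn1KO and β-Mfn2KO against Ctrl only Ins1 passes, and in the comparisons with β-Mfn1/2DKO the passing genes all lie below 0.

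Between genes, levels were compared per length of the first-listed transcript, as CPM per kilobase. In Ctrl, Ins2 led at 249389 ± 49834 (SD, n = 6), followed by Ins1 at 32839 ± 7463 and Iapp at 26753 ± 1669. The ranges of Ins1 and Iapp overlapped (24237 to 44619 and 24246 to 28258 CPM per kilobase), and neither reached that of Ins2. Cpe at 1803 ± 91.6 CPM per kilobase, Pcsk2 at 1048 ± 113, Pcsk1n at 609.6 ± 37.0, Slc30a8 at 327 ± 29.97 and Ucn3 at 239 ± 23.5 came next, each with a range apart from the one before. Pam at 171 ± 33.5 and Pcsk1 at 134 ± 27.7 were the lowest and overlapped each other, and Pam also overlapped Ucn3. In each knockout genotype Ins1 stood behind Iapp on this scale, at 5418 ± 545 against 18445 ± 2511 CPM per kilobase in β-Mfn1/2DKO. Ucn3 moved behind Pam there, at 68.9 to 115 against 136 to 154 CPM per kilobase, ranges that did not overlap. A level per length depends on the transcript taken: Ins2-201 is 478 bases long and Ins1-201 1062.

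Whether loss of Mfn1 acted differently with and without Mfn2 was tested as an interaction, the log2 difference between β-Mfn1/2DKO and β-Mfn2KO minus that between β-Mfn1KO and Ctrl. It was negative and passed for 7 of 10 genes, where 5.92% of all genes passed in either direction. The values were −1.31 (SE 0.19, adjusted p = 0.000366) for Ins2, −1.36 (SE 0.18, adjusted p = 0.000164) for Ucn3, −1.07 (SE 0.20, adjusted p = 0.00212) for Pcsk1 and −0.72 (SE 0.13, adjusted p = 0.00150) for Iapp. For Ins1 it was −0.84 (SE 0.20, adjusted p = 0.0111), and since the number of Ins1 copies replaced by Cre is not known in any genotype, it is not read as an effect of Mfn1. Losing Mfn1 thus went with lower levels of Ins2, Ucn3, Pcsk1 and Iapp where Mfn2 was also lost, beyond the difference seen where Mfn2 was kept. The interaction of Cpe, −0.40 (SE 0.11, adjusted p = 0.0258), and that of Slc30a8, −0.50 (SE 0.14, adjusted p = 0.0396), passed narrowly. The call of Cpe was lost without any one of β-Mfn1KO replicate 1, β-Mfn2KO replicates 1 and 2 and β-Mfn1/2DKO replicates 1, 3 and 4 (adjusted p from 0.0512 to 0.0653). That of Slc30a8 was lost without any one of Ctrl replicates 1, 2, 3 and 6, β-Mfn1KO replicates 2 to 4, β-Mfn2KO replicates 1 to 4 and β-Mfn1/2DKO replicates 4 and 5 (adjusted p from 0.0547 to 0.0845), and with replicate number as a block (−0.44, adjusted p = 0.0915). Pcsk2 (−0.27, adjusted p = 0.385), Pcsk1n (0.06, 0.969) and Pam (−0.25, 0.446) did not pass. Apart from Ins1, the log2 fold changes of the single knockouts against Ctrl ran from 0.01 to 0.20 in β-Mfn1KO and from −0.17 to 0.11 in β-Mfn2KO. Between β-Mfn2KO and β-Mfn1KO 0 of 10 genes passed with edgeR (0.335% of all genes did). An unadjusted p under 0.05 was found for 2 (13.0% of all genes), and 2 passed with DESeq2 (2.92% of all genes). In both cases these were Cpe (−0.20) and Pam (−0.35).

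Other genes of the insulin pathway were read from 6 lists with 91 genes in all. In β-Mfn1/2DKO against Ctrl, 44 fell and 8 rose, where 6.86% of all genes fell and 9.59% rose, and the median log2 fold change of the 91 was −0.30. These shares are the background for each list that follows. The genes for entry of preproinsulin into the endoplasmic reticulum and for its folding moved furthest as a list: 23 of 28 fell and 0 rose, with a median of −0.54 beside 0.06 over all genes. Ero1b, for an oxidase that helps form disulfide bonds, was at 1021 to 1841 CPM in Ctrl and 397 to 588 in β-Mfn1/2DKO (log2 fold change −1.64, adjusted p = 2.03e-07). The others with the largest changes were Sdf2l1 (log2 fold change −1.25, adjusted p = 0.000225) and Manf (log2 fold change −0.86, adjusted p = 0.000517), partners of the chaperone BiP, and the translocon subunit gene Sec61g (log2 fold change −0.91, adjusted p = 4.85e-05). Of 20 genes for granule cargo and granule membrane, 10 fell and 2 rose (median −0.24). They include Sytl4 (log2 fold change −1.21, adjusted p = 3.32e-07), which encodes granuphilin, the granin gene Scg3 (log2 fold change −0.80, adjusted p = 5.66e-06), Ptprn (log2 fold change −0.54, adjusted p = 0.00185), which encodes a granule membrane protein, and Rab3a (log2 fold change −0.53, adjusted p = 0.000302), for a GTPase of exocytosis. Of 15 transcription factor genes linked to the insulin promoter, 8 fell and 2 rose (median −0.21), led by Mafa (log2 fold change −1.31, adjusted p = 1.19e-05), Nkx6-1 (log2 fold change −0.66, adjusted p = 7.46e-05), Pdx1 (log2 fold change −0.63, adjusted p = 0.000112) and Mnx1 (log2 fold change −0.43, adjusted p = 0.00169).

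The convertases and peptidases outside the 10 genes did not move as the folding genes did. Of 14, 2 rose (9.59% of all genes did), and the median log2 fold change was 0.14. Pcsk6 was at 35.04 to 56.1 CPM in Ctrl and 107 to 137 in β-Mfn1/2DKO (log2 fold change 1.51, adjusted p = 3.50e-08), and Cpd, for a carboxypeptidase of the Golgi, rose too (log2 fold change 0.18, adjusted p = 0.0339). Scg5, whose product 7B2 assists PC2, did not pass (log2 fold change −0.14, adjusted p = 0.206) and is named here after its value was seen. Hormones of other islet cells did not pass in 5 of 5 cases: Gcg (log2 fold change 0.42, adjusted p = 0.194), Sst (−0.36, 0.160), Ppy (−0.16, 0.600), Pyy (−0.06, 0.792) and Ghrl (−0.43, 0.547). Of these 5, 1 had an unadjusted p under 0.05 with edgeR and 0 passed with DESeq2. In β-Mfn1KO and β-Mfn2KO against Ctrl 0 of the 91 genes passed with edgeR and 0 with DESeq2. At an unadjusted p under 0.05 there were 22 in β-Mfn1KO, where 7.44% of all genes were, and 3 in β-Mfn2KO, where 4.22% were. With depth class (over 40 M counts or not) as a covariate, 6 of the 91 passed in β-Mfn1/2DKO against Ctrl in place of 52, and 2.54% of all genes in place of 16.5%.

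**Figure D5:**
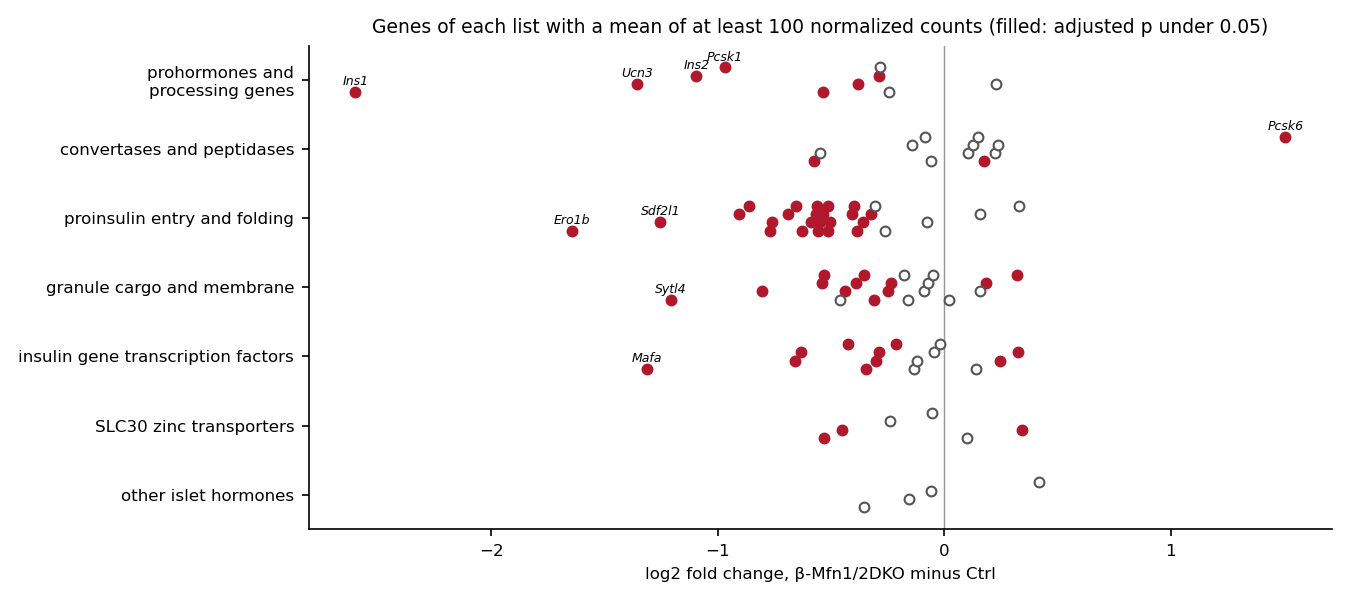
Log2 fold change in β-Mfn1/2DKO against Ctrl of each gene that averaged 100 or more normalized counts, by list, filled where the adjusted p over all genes is under 0.05, with names for large changes. Most genes of the folding list lie below 0, and the genes of other convertases and other hormones lie on both sides.

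Cell type markers show what else differed between these islets. All 8 β-cell markers fell in β-Mfn1/2DKO against Ctrl (6.86% of all genes fell and 9.59% rose), with a summed level of 2406, 2340.3, 2086, 1663 and 1715 CPM against 3388 to 4421 in Ctrl and G6pc2 as the most abundant. Of these, 4 are also among the transcription factors above. The summed level of 7 α-cell markers, mostly Gcg, was 37459.9, 42039.6, 34070.5, 32408 and 54375 CPM against 16347 to 51435 in Ctrl. Of 5 markers of δ and PP cells 0 passed with edgeR (1 at an unadjusted p under 0.05, 0 with DESeq2). Their sums were 4354 to 5659 against 5031 to 7680.4 CPM, with Ppy the most abundant on average. All 12 acinar markers rose. Their sum, with Ctrb1 as the most abundant, was 472, 775, 461, 17086 and 43863 CPM in β-Mfn1/2DKO, 305 to 1907 in Ctrl, 111 to 637 in β-Mfn1KO and 556, 1795, 489.8, 7278 and 652 in β-Mfn2KO. High acinar sums thus stood in β-Mfn1/2DKO replicates 4 and 5 and in β-Mfn2KO replicate 4, and the other β-Mfn1/2DKO libraries were within the range of Ctrl. Of 7 duct markers 4 rose (sum 1021, 1128, 993, 1842 and 2535 against 777 to 997 CPM in Ctrl). Of 6 endothelial markers 6 rose (228, 216, 191, 300.1 and 284 against 132 to 197). On average over all libraries Krt7 was the most abundant duct marker and Kdr the most abundant endothelial marker. Of 6 immune markers 0 passed with edgeR, at an adjusted or an unadjusted p under 0.05, or with DESeq2. Their sums were 73.4 to 204 against 73.7 to 558 CPM, with Lyz2 the most abundant on average. Of 6 stromal markers 1 rose, Pdgfrb (log2 fold change 0.67, adjusted p = 0.0210). Their sums were 47.0 to 92.4 against 17.97 to 325 CPM, with Col1a1 the most abundant on average. Ctrl replicate 6 alone held the high immune and stromal sums of its genotype (the other 5 Ctrl libraries had at most 94.4 and 44.4 CPM). So did β-Mfn2KO replicate 5 (772 and 349.6 against at most 106 and 71.6). Each of these libraries also had the lowest Pcsk1, Pcsk2, Pcsk1n, Pam and Slc30a8 of its genotype. No marker was at 0 in all libraries of a genotype.

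Without β-Mfn1/2DKO replicates 4 and 5, 5 of 10 genes fell against Ctrl: Ins1 (−2.51, adjusted p = 8.88e-09), Ins2 (−0.98, 0.00106), Iapp (−0.39, 0.0242), Ucn3 (−1.13, 5.54e-07) and Pcsk1 (−0.81, 0.000649). Cpe (−0.24, adjusted p = 0.101) and Slc30a8 (−0.23, 0.141) no longer passed. Of all genes 11.25% passed in this fit, in place of 16.5%. Against β-Mfn1KO, Pam and Slc30a8 no longer passed without them, and against β-Mfn2KO Cpe did not. The interaction then passed for 4 genes, Ins2, Iapp, Ucn3 and Pcsk1 (4.07% of all genes). With depth class as a covariate, 5 of 10 passed against Ctrl: Ins1, Ins2, Iapp and Ucn3 fell and Pcsk1n rose (0.63, adjusted p = 0.0398), while Pcsk1 (−0.65, adjusted p = 0.159), Cpe and Slc30a8 did not pass and Pcsk2 turned to 0.09. With this covariate 2.54% of all genes passed against Ctrl. Against β-Mfn1KO 4 of 10 then passed in place of 8 (4.31% of all genes). The same covariate lost the calls of Cpe and Slc30a8 against both single knockouts and in the interaction. Among the 7 libraries over 40 M counts, a comparison added after the data were seen, 4 of 10 fell in β-Mfn1/2DKO against β-Mfn2KO (Ins1, Ins2, Ucn3 and Pcsk1). In that edgeR fit 6.30% of all genes passed, in place of 13.0%. Iapp no longer passed there (adjusted p = 0.0609), with a log2 fold change of −0.554 beside −0.556 with all libraries. Cpe (−0.12, adjusted p = 0.543) and Slc30a8 (−0.27, adjusted p = 0.349) did not pass either. Scaling by the total count in place of TMM raises the median log2 fold change of well counted genes (mean of 100 normalized counts or more) in β-Mfn1/2DKO by 0.14 against Ctrl, 0.16 against β-Mfn1KO and 0.11 against β-Mfn2KO, and that of the interaction by 0.13. On that scale 6 of 10 genes passed against Ctrl: Ins1, Ins2, Iapp, Ucn3 and Pcsk1 fell, Pcsk1n rose, and Cpe and Slc30a8 no longer passed. The share of all genes that passed rose to 22.15% from 16.5%. The calls of Cpe against β-Mfn2KO, of Slc30a8 against β-Mfn1KO and of both in the interaction were lost as well. Pcsk1n came to pass as higher against β-Mfn2KO, both on that scale (0.30, adjusted p = 0.0449) and with depth class as a covariate (0.44, adjusted p = 0.0403). The part of other cell types in the values with all libraries was not tested.

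Out of 7047 genes whose normalized counts averaged 1000 or more, those closest to the genes described here were found by the mean absolute difference in log2 level over the 20 libraries, each gene centred on its Ctrl mean. Nearest to Ins2 were G6pc2, Fh1 and Slco1a6 (a difference of 0.15 for the first named), and G6pc2 encodes a glucose-6-phosphatase of β cells. Nearest to Ucn3 were Tmem215, Sytl4 and Phactr1 (0.13), and to Pcsk1 Cbs, Fh1 and Gng12 (0.09), so that the fumarase gene Fh1 stood near both Ins2 and Pcsk1. Iapp had Uqcrb, Atp6ap2 and Tssc4 (0.08) as its nearest genes, and Slc30a8 had Sepsecs, Scnn1b and Kdm2b (0.07). Those nearest to Pcsk2 were Slc16a10, Rangap1 and Ubqln2 (0.05), to Pcsk1n Irf2bp1, Spint2 and Spint1 (0.09) and to Pam Mogs, Hars and Lars (0.07). Ins1 had no gene as close. The nearest were Gm28438, Gm10222 and mt-Nd6 (0.39 for the first), a wider difference than for the other genes.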

How the data were processed

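RNA of mouse islets was read as paired ends in 20 libraries. Per the submitters' processing notes and the study's methods, the authors checked reads with FastQC 0.11.8, named cutadapt 2.3 for trimming, aligned to GRCm38 with STAR 2.6.1b and estimated counts per gene with RSEM 1.3.1, and dropped genes at 0 in all samples. The deposited estimated counts are whole numbers without normalization. A depth-normalized table was not used here. The sample labels give genotype, sex and a replicate number for each library. That the libraries of a group come from separate mice is taken from the study's design, and p-values measure the spread between them.

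The count table (28632 genes) went into edgeR 4.0.16 under R 4.3.3 for TMM, estimateDisp, glmQLFit and glmQLFTest in 1 fit over 20 libraries with 1 coefficient per group, no covariate and no filter on low counts. P-values were adjusted by the Benjamini-Hochberg method over every gene in the table, contrast by contrast, and a gene passed at an adjusted p under 0.05. The standard error is the absolute log2 fold change over the root of the F statistic. What is called a normalized count is a CPM times the mean TMM-scaled library size in M, 41.4. For log2 ratios of raw counts an exact permutation test of both tails was used, adjusted over 30 tests, and the test was tested on simulated data. Ensembl IDs were matched to an annotation of GRCm38 (28561 with a symbol), and sequences are from RefSeq. Tables and figures used Python 3.11.15, NumPy 2.4.6, pandas 2.3.3, SciPy 1.17.1 and Matplotlib 3.10.9. No library matched another of its group within sampling noise: the lowest chi-square per gene was 7.38 over 41 pairs.

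Alternatives were DESeq2 1.42.0, DESeq2 size factors, total-count scaling, TMM without the 10 genes, filterByExpr, fits to the compared groups alone, sex, replicate number or depth class (over 40 M counts) as covariates, counts thinned to the smallest total (12400687), and leaving out libraries. The comparison of deep libraries alone by edgeR, and the alternatives for the pathway lists, were added after the data were seen. The 10 genes and all lists were chosen with earlier results of these data known. Named beside them are, per list, up to 4 genes that passed in β-Mfn1/2DKO against Ctrl with the largest fold changes and a mean of at least 100 normalized counts, every other islet hormone, the most abundant gene of each marker list, and the 3 genes closest to each of the 10. Some genes that meet this rule are not reported here.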

Additional observations from a re-analysis of the deposited data

Results flagged for a closer look

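Among 60 groups of values (10 genes and 5 ratios in 4 genotypes), 2 held a library far from the rest of its group by Dixon's test. Chance alone does so in about 5 percent of groups. Iapp stood at 25080.0 CPM in β-Mfn2KO replicate 4, where the others lay between 21933 and 22636. The log2 ratio of Pcsk1 to Pcsk2 stood at −2.91 in β-Mfn1KO replicate 4, the only male library of its group, where the others lay between −2.73 and −2.69.

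A difference between genotypes in the effect of Mfn1 loss drew 7 genes out, by the interaction test of edgeR, which 5.92% of all genes passed. The effect without Mfn2 minus that with Mfn2 was −0.84 for Ins1 (adjusted p = 0.0111), −1.31 for Ins2 (adjusted p = 0.000366), −0.72 for Iapp (adjusted p = 0.00150), −1.36 for Ucn3 (adjusted p = 0.000164), −1.07 for Pcsk1 (adjusted p = 0.00212), −0.40 for Cpe (adjusted p = 0.0258) and −0.50 for Slc30a8 (adjusted p = 0.0396) on the log2 scale. The calls of Cpe and Slc30a8 were narrow and were each lost when any one of several libraries was left out. For Ins1 the number of copies replaced by Ins1-Cre is not known in any genotype, so its value is not read as an effect of Mfn1.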

How the results depend on the processing

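The falls of Ins1, Ins2, Iapp and Ucn3 in β-Mfn1/2DKO against Ctrl passed under all 11 alternatives tried and without any one library. The log2 fold changes under the alternatives ran from −2.63 to −2.45 for Ins1, from −1.13 to −0.95 for Ins2, from −0.62 to −0.39 for Iapp and from −1.39 to −1.05 for Ucn3. Between 5 and 9 of the 10 genes passed there, and 8 when all libraries were thinned to the depth of the shallowest. The share of all genes ran from 2.54% (depth class) to 22.15% (total-count scaling), and was 13.62% with thinning. Some numbers of passing genes moved by over 1.5 times. In β-Mfn1KO against Ctrl 0 passed in place of 1 (Ins1) when only the compared groups were fitted. In β-Mfn1/2DKO against β-Mfn1KO 4 passed in place of 8 with depth class as a covariate (4.31% of all genes). Against β-Mfn2KO 4 passed in place of 7 among libraries over 40 M counts (6.30% of all genes), a setting added after the data were seen. Between β-Mfn2KO and β-Mfn1KO 2 passed in place of 0 with DESeq2 (2.92% of all genes). The interaction passed for 4 in place of 7 without β-Mfn1/2DKO replicates 4 and 5 (4.07% of all genes). Depth class as a covariate left 6 of 91 pathway genes in place of 52, and 2.54% of all genes in place of 16.5%. Fewer libraries make some of these tests weaker by construction, and otherwise the cause was not tested.

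Directions turned in 6 cases: Pcsk2 in β-Mfn1/2DKO went to 0.0925 against Ctrl and 0.0723 against β-Mfn1KO with depth class as a covariate, and to 0.0343 against β-Mfn2KO among deep libraries. Pam against β-Mfn2KO went to 0.0391 with total-count scaling, under which the median of all well counted genes moved by 0.11. It went to 0.0161 with depth class and 0.0639 among deep libraries. None of these 6 values passed, and the cause was not tested.

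With each library left out in turn, 7 to 9 genes passed in β-Mfn1/2DKO against Ctrl (13.45 to 17.24% of all genes) and 7 to 8 against β-Mfn1KO (13.8 to 17.4%). Against β-Mfn2KO 6 to 8 passed (9.811 to 12.99%), and in the interaction 5 to 7 (4.289 to 6.451%). In β-Mfn1KO against Ctrl 0 to 1 passed (0.01048 to 0.09779%). Of the pathway genes 48 to 54 passed in β-Mfn1/2DKO against Ctrl, and 9 to 14 of the 30 ratios passed. Without β-Mfn1/2DKO replicates 4 and 5, 0 of 30 ratios passed, as the smallest p that these sizes allow then exceeds what the adjustment lets pass; their differences kept their direction.

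The labels give the groups the same replicate numbers without saying what a number stands for. Deviations of 12274 genes from the group means correlated by 0.2203 on average between libraries of the same number and by −0.0481 between others. Of 27 same-numbered pairs 19 were above 0.1 (lowest −0.135), so libraries of the same number shared deviations more than others did. Replicates 1 and 2 are female and 4 and 5 male in every genotype that holds them, so number and sex go together in part. What is shared was not tested. As the labels do not say what a number stands for, the main fit did not pair by it. In fits with replicate number as a block 9 of 10 genes passed in β-Mfn1/2DKO against Ctrl (17.29% of all genes). Against β-Mfn1KO 9 passed (16.4% of all genes) and against β-Mfn2KO 7 (13.76%). With the block 6 passed in the interaction (5.09% of all genes), all but Slc30a8 of the 7, and 60 of 91 pathway genes passed. Of the ratios 0 of 30 passed with the block, as 5 pairs cannot give a p under 0.0625 or 4 pairs one under 0.125. Of all single values under the alternatives, 1062 kept their direction and side of the threshold, 138 kept the direction and no longer passed, and 22 came to pass.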
